A study of Mus musculus with 6 samples.

Results

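The genes of MHC class II antigen presentation were examined in RNA-seq counts from mouse femur on day 21 after focal radiation. They are the 10 genes H2-Aa, H2-Ab1, H2-Eb1, Cd74, Ciita, H2-DMa, H2-DMb1, H2-DMb2, H2-Oa and H2-Ob, chosen by name, of 43346 genes in the table. All 10 were found and all 10 passed the filter on low counts, which 18757 genes passed. Both groups were C57BL/6 mice, a common inbred strain, aged 4 months, with no genetic change named. In the radiated group the distal metaphysis of the right femur, the marrow-rich end of the shaft, received an image-guided single dose of 24 Gy (gray, the unit of absorbed dose) at 6.6 Gy per minute over 5 mm. The non-radiated group was the left femur, opposite to the treated one and given no dose. Each group had 3 libraries, made from 5 mm of bone with its marrow after muscle was cut away, at a time set ahead of the bone loss seen on day 28.

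MHC class II molecules are pairs of an alpha and a beta chain that display peptides from engulfed proteins to CD4 T cells. They are made mainly by B cells, dendritic cells and macrophages, all of which live in marrow. Cd74, the invariant chain, escorts new pairs to endosomes and blocks their groove. H2-DM (H2-DMa with H2-DMb1 or H2-DMb2) then exchanges the last invariant chain fragment for peptide, and H2-O (H2-Oa with H2-Ob) restrains H2-DM. Ciita is the coactivator that switches the genes on. It does not bind DNA itself but docks on factors held by a shared promoter module, the X box, bound by the RFX complex and by CREB-type factors, and the Y box, bound by NF-Y.

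That module can be read in the promoters of the members. RefSeq promoter windows on GRCm38.p6, from 250 bases before to 50 after a start site, were at hand for 7 of the 10 members, and no entry was found for H2-Ab1, Cd74 and Ciita. The stretches below run 72 bases around the Y box. Capitals mark 3 motifs, which were chosen after the windows had been read: an X box core, AACNNATGATG, where N is any base; TGACGTCA, the CREB site, which is its own reverse complement; and a Y box, TGATTGG, the reversed CCAAT box.
H2-Aa (chr17:34287852-34287923, minus strand): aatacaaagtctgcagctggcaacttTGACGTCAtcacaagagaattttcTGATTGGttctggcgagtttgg
H2-Eb1 (chr17:34305756-34305827, plus strand): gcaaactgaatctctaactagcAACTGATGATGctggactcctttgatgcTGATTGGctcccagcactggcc
H2-DMb1 (chr17:34153078-34153149, plus strand): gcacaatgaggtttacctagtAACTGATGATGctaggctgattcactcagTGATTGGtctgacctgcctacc
H2-DMb2 (chr17:34145107-34145178, plus strand): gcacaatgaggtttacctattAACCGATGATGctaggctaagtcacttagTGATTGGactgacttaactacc
H2-Oa (chr17:34092284-34092355, plus strand): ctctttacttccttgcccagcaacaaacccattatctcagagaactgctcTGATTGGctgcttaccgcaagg
H2-Ob (chr17:34238796-34238867, plus strand): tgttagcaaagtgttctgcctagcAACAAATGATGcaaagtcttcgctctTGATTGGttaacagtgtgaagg

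The Y box letters stood between 45 and 92 bases before the RefSeq start site in all 6 stretches. In H2-Eb1, H2-DMb1, H2-DMb2 and H2-Ob the X box core began 28, 29, 29 and 26 bases before the Y box on the same strand. H2-Aa did not hold that core and had the CREB site 24 bases before its Y box. H2-Oa had neither of these letters upstream of its Y box. The core letters were read from the windows of H2-Eb1, H2-DMb1, H2-DMb2 and H2-Ob, so their absence does not show that H2-Aa or H2-Oa lacks an X box. Among all 32851 promoter windows, read on both strands, the Y box letters occurred in 7.82%, the CREB site in 1.79% and the X box core in 0.137%. The X box core followed within 40 bases by the Y box occurred in 4 windows (0.0122%), those of H2-Eb1, H2-DMb1, H2-DMb2 and H2-Ob. Since the letters were taken from these windows, this share describes them and tests nothing. The RefSeq start sites of the H2-DMa windows lay 9664 and 12350 bases from the start of the gene in the deposited table, and these windows held none of the 3 motifs and are not shown. For H2-DMb2, which is shown, the RefSeq start site lay 1942 bases from the deposited start, within the deposited gene. For the other stretches shown the distance was 2 to 119 bases.

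**Figure D1:**
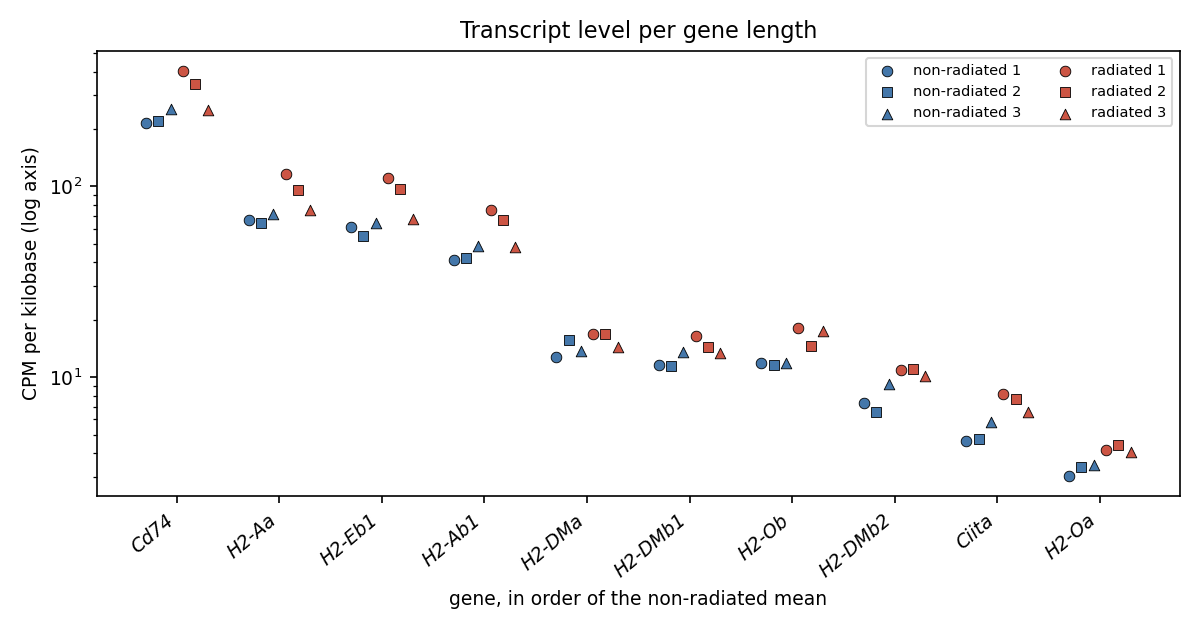
Level of each gene in each library, as TMM-scaled CPM divided by gene length in kilobases (vertical log axis), with genes on the horizontal axis in order of their non-radiated mean. Circles, squares and triangles are replicates 1, 2 and 3, blue for non-radiated and red for radiated femur, and Cd74 stands above the 3 chain genes in both groups.

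Per gene length, the invariant chain was the most abundant member and the H2-O alpha chain the least. Levels are given here in CPM per kilobase, where CPM is the count scaled to a common library size by the trimmed mean of M-values (TMM). In non-radiated femur Cd74 was at 230.0 ± 21.5 CPM per kilobase (mean ± SD, n = 3). The 3 classical chain genes followed, H2-Aa at 67.6 ± 3.93, H2-Eb1 at 60.3 ± 4.75 and H2-Ab1 at 43.9 ± 4.25 CPM per kilobase. The libraries of H2-Aa and H2-Eb1 overlapped, and those of H2-Eb1 and H2-Ab1 did not, though they did in radiated femur. The order and overlap of all neighbours are given for the deposited lengths. The order of H2-Eb1 and H2-Ab1 depends on the length used. Their deposited lengths were 1184 and 1637 bases, while their longest GENCODE M21 coding transcripts had 1669 and 1212 bases. Not divided by length, they were at 71.4 and 71.8 CPM in non-radiated femur. Lengths also differed for H2-Aa (1874 bases deposited, 1128 in the longest coding transcript) and H2-Ob (3153 and 2670 bases). Orders by transcript length were not computed for the other genes. H2-DMa (14.02 ± 1.46 CPM per kilobase), H2-DMb1 (12.2 ± 1.15) and H2-Ob (11.8 ± 0.187) followed. H2-DMa overlapped H2-DMb1 and H2-DMb1 overlapped H2-Ob, and H2-Ob lay above H2-DMb2 in every library. H2-DMb2 (7.69 ± 1.33), Ciita (5.07 ± 0.673) and H2-Oa (3.29 ± 0.231 CPM per kilobase) came last, with no overlap between neighbours. In radiated femur the order was the same except that H2-Ob, at 16.7 ± 1.88 CPM per kilobase, stood above H2-DMa, at 16.0 ± 1.46, with overlapping libraries.

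The comparison of the groups asks which of these transcripts differed after radiation and before bone loss. All 10 members had positive log2 fold changes (radiated over non-radiated), as did 50.5% of all tested genes, and 4 rose by edgeR's quasi-likelihood test at a Benjamini-Hochberg adjusted p under 0.05 over all genes: H2-Ob, Ciita, H2-DMb2 and H2-Eb1. The other 6 did not pass, and none was lower, also at an unadjusted p under 0.05 and by DESeq2 or limma-voom. Of all tested genes 7.80% passed, 4.56% as higher and 3.24% as lower. At an unadjusted p under 0.05, 9 of the 10 members were higher, against 12.2% of all tested genes. The members' median log2 fold change was 0.50, and that of all tested genes was 0.00. In bulk bone a change in the number of cells of a type and a change in RNA per cell cannot be told apart.

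**Figure D2:**
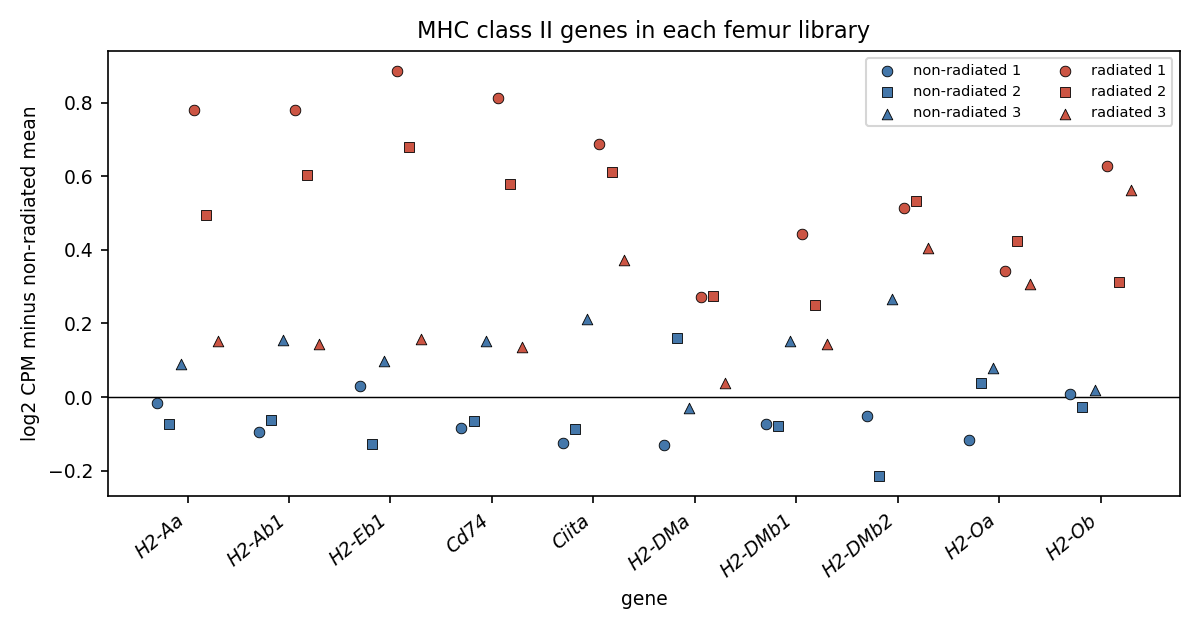
Log2 CPM of each gene in each library, minus the mean of the 3 non-radiated libraries (vertical axis), for the 10 genes on the horizontal axis, with symbols as replicates and colours as groups. Radiated library 1 is highest for 7 of the 10 genes, and radiated library 3 lies near the non-radiated libraries for the classical chains and Cd74 but not for H2-Ob.

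The size of the difference depended on the radiated library. Radiated libraries 1 and 2 lay above every non-radiated library for 10 of 10 members, and radiated library 3 for 6 of 10. The share of all tested genes for which a single radiated library did so was not counted, so these counts only describe the members. Relative to the non-radiated mean, the members' median log2 difference was 0.66 in radiated library 1, 0.51 in radiated library 2 and 0.15 in radiated library 3. Among the radiated libraries, library 1 was the highest for 7 members and library 2 for 3, and library 3 was the lowest for 9. The exception was H2-Ob, which was lowest in library 2.

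Of the classical chains, H2-Eb1 alone passed in the main fit, and this depended on the method. By DESeq2's Wald test H2-Aa and H2-Ab1 passed (adjusted p 0.000409 and 0.000442) and H2-Eb1 did not (0.0532). By limma-voom none of these chains passed (adjusted p 0.0729 for H2-Aa, 0.0794 for H2-Ab1 and 0.0741 for H2-Eb1). H2-Aa and H2-Ab1 form the I-A molecule, and H2-Eb1 is the beta chain of I-E, whose alpha chain gene is not functional in C57BL/6 mice. H2-Eb1 (ENSMUSG00000060586, chromosome 17, 34305877 to 34316199) was at 72.8, 65.2 and 76.2 CPM in non-radiated libraries 1, 2 and 3 and at 132, 114 and 79.4 CPM in radiated libraries 1, 2 and 3. Radiated library 3 was only just above the highest non-radiated library. The log2 fold change was 0.60 (SE 0.16, adjusted p 0.0477 by edgeR), or 1.52-fold. With 1 of the 6 libraries dropped at a time, this call held only in the fit without radiated library 3 (log2 fold change 0.78, adjusted p 0.00127 by edgeR). Dropping non-radiated library 1, 2 or 3 ended it (adjusted p 0.127, 0.163 and 0.0800), as did a fit without either radiated library 1 (0.142) or 2 (0.0939).

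H2-Aa (ENSMUSG00000036594, chromosome 17, 34282744 to 34287827), the I-A alpha chain, was at 125, 120.3 and 135 CPM in the non-radiated libraries and 218, 179 and 141 CPM in the radiated libraries. The groups did not overlap, but radiated library 3 was again close to non-radiated library 3. Its log2 fold change of 0.50 (SE 0.13) had an adjusted p 0.0539 by edgeR, which did not pass. With the replicate number as a block, which treats femurs of 1 number as a pair, it passed (log2 fold change 0.48, SE 0.12, adjusted p 0.0441 by edgeR). H2-Ab1 (ENSMUSG00000073421, chromosome 17, 34263209 to 34269418), the I-A beta chain, was at 67.1, 68.6 and 79.8 CPM in the non-radiated libraries and 123, 109 and 79.2 CPM in the radiated libraries. Here radiated library 3 lay inside the non-radiated range, and the log2 fold change of 0.53 (SE 0.14, adjusted p 0.0555 by edgeR) was not called. Without radiated library 3, H2-Aa and H2-Ab1 both passed, at adjusted p 0.00424 and 0.00290 by edgeR and log2 fold changes of 0.64 and 0.69.

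Cd74 (ENSMUSG00000024610, chromosome 18, 60803848 to 60812646) followed the chains closely. It was at 305, 309 and 359 CPM in the non-radiated libraries and 568, 483 and 355 CPM in the radiated libraries, so radiated library 3 was below non-radiated library 3. The log2 fold change of 0.53 (SE 0.15, adjusted p 0.0639 by edgeR) was not called, and it passed without radiated library 3 (0.70, adjusted p 0.00427). A row for the microRNA gene Mir5107 lies inside Cd74 and held 175 to 627 counts per library. Within a library the count of Cd74 stayed at 2.44 to 2.70 times that of H2-Aa in all 6 libraries, with overlapping groups. The counts of H2-Eb1 and H2-Ab1 were 0.542 to 0.639 and 0.536 to 0.610 times that of H2-Aa. These ratios do not depend on scaling between libraries, and in all 3 the groups overlapped.

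Ciita (ENSMUSG00000022504, chromosome 16, 10488178 to 10527564) rose. It was at 24.3, 24.95 and 30.7 CPM in the non-radiated libraries and 42.7, 40.5 and 34.3 CPM in the radiated libraries, with no overlap. The log2 fold change was 0.55 (SE 0.11, adjusted p 0.0173 by edgeR), or 1.47-fold. Dropping non-radiated library 1 (adjusted p 0.0691), non-radiated library 2 (0.0755) or radiated library 1 (0.0734) ended the call. Ciita overlaps Dexi in the table, which had 129 to 232 counts per library and a log2 fold change of -0.12 (adjusted p 0.632 by edgeR). Its counts are uncertain to that extent, since the use of strand in counting is not given in the sources used here. The count of Ciita was 0.0752 to 0.0966 of that of Cd74, and the groups overlapped.

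**Figure D3:**
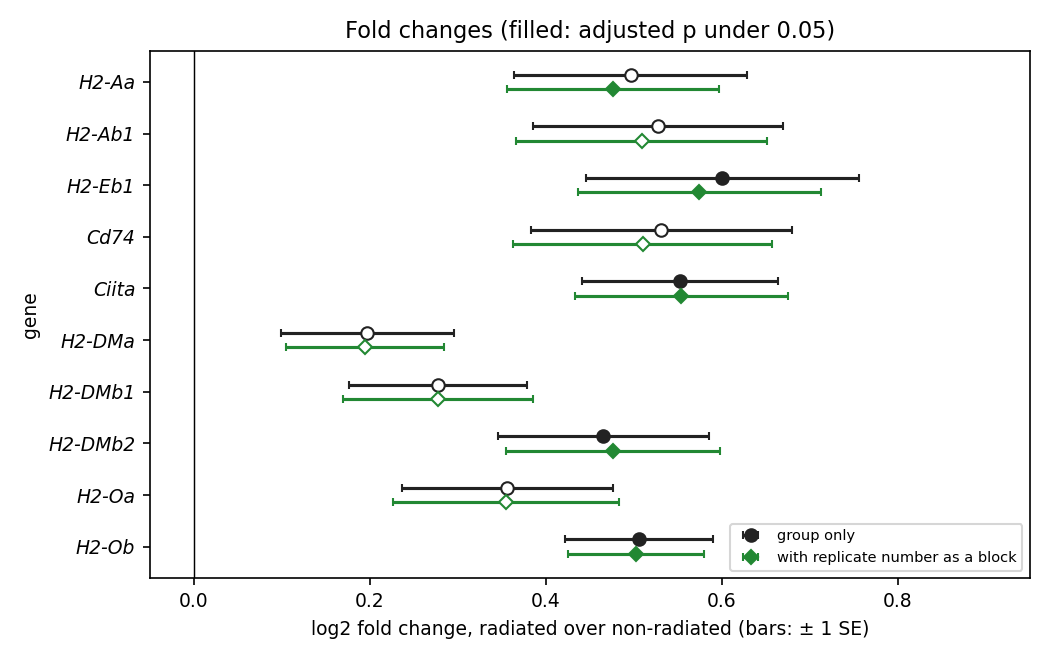
Log2 fold change of each gene, radiated over non-radiated femur (horizontal axis), with bars of 1 SE on either side. Circles are the fit with the group as the only term and diamonds the fit with the replicate number as a block, filled where the adjusted p is under 0.05. All 20 estimates lie above 0, and H2-Aa is the gene whose call differs between the fits.

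Of the 3 H2-DM genes, the peptide exchangers, 1 passed. H2-DMb2 (ENSMUSG00000037548, chromosome 17, 34143307 to 34151553) rose, from 12.6, 11.2 and 15.7 CPM in the non-radiated libraries to 18.6, 18.8 and 17.2 CPM in the radiated libraries. Every radiated library was above every non-radiated library, including radiated library 3, and the log2 fold change was 0.47 (SE 0.12, adjusted p 0.0476 by edgeR), or 1.38-fold. The call held without non-radiated library 3 (adjusted p 0.0102). Dropping non-radiated library 1 or 2 (0.150 and 0.146) or radiated library 1, 2 or 3 (0.144, 0.113 and 0.0666) ended it.

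H2-DMb1 (ENSMUSG00000079547, chromosome 17, 34153072 to 34160230) was at 17.1, 17.05 and 20.0 CPM in the non-radiated libraries and 24.5, 21.4 and 19.9 CPM in the radiated libraries. Its log2 fold change of 0.28 (SE 0.10, adjusted p 0.145 by edgeR) did not pass, and the groups overlapped at library 3. These neighbours are close copies. Their longest GENCODE M21 coding transcripts were 95.4% identical over 848 aligned bases, with an identical run of 221 bases, so reads can be shared between them and the division of counts is uncertain. No other pair of members shared an identical run of more than 37 bases (H2-Ab1 and H2-Eb1). The count of H2-DMb1 was 1.28 to 1.52 times that of H2-DMb2 in the non-radiated and 1.14 to 1.32 times in the radiated libraries, which overlapped.

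H2-DMa (ENSMUSG00000037649, chromosome 17, 34135182 to 34139101), the partner of both, had the lowest fold change of the 10. It was at 20.9, 25.6 and 22.4 CPM in the non-radiated libraries and 27.7, 27.7 and 23.6 CPM in the radiated libraries, with a log2 fold change of 0.20 (SE 0.10, adjusted p 0.291 by edgeR). The summed counts of the 3 H2-DM genes were 8.88%, 9.57% and 8.95% of the summed counts of H2-Aa, H2-Ab1, H2-Eb1 and Cd74 in the non-radiated libraries. In the radiated libraries that share was 6.80%, 7.69% and 9.27%. Radiated libraries 1 and 2 were below and radiated library 3 was within the non-radiated range, so the groups overlapped.

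H2-Ob showed the smallest p of the members. H2-Ob (ENSMUSG00000041538, chromosome 17, 34238903 to 34245907), the H2-O beta chain, known from B cells in particular, was at 37.3, 36.4 and 37.5 CPM in the non-radiated libraries. It was at 57.3, 46.0 and 54.7 CPM in the radiated libraries, and radiated library 3 was among the high ones. The log2 fold change was 0.51 (SE 0.08, adjusted p 0.00686 by edgeR), or 1.42-fold, and it was also called in each of 14 alternative fits, with adjusted p up to 0.0371. H2-Oa (ENSMUSG00000024334, chromosome 17, 34092340 to 34095234), its alpha partner, was at 3.98, 4.43 and 4.55 CPM in the non-radiated libraries and 5.47, 5.79 and 5.33 CPM in the radiated libraries. The groups did not overlap, and the log2 fold change of 0.36 (SE 0.12, adjusted p 0.114 by edgeR) did not pass. The antisense row BC051537 overlaps H2-Oa and held 7 to 21 counts per library, against 111 to 309 of H2-Oa.

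Over the members together, CPM did not overlap between the groups for 6 of 10, all higher in radiated femur: H2-Aa, H2-Eb1, Ciita, H2-DMb2, H2-Oa and H2-Ob. Over all tested genes 14.4% were higher without overlap. Within replicate numbers 1 and 2 all 10 members were higher in the radiated femur, and the share of all tested genes within a number was not counted. Within number 3 the log2 differences ran from -0.02 for Cd74 to 0.54 for H2-Ob.

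The members also differed in how they varied inside the groups. Deviations from the group mean of log2 CPM were compared, over the 6 libraries, with the mean deviation of H2-Aa, H2-Ab1, H2-Eb1 and Cd74. The correlation was 0.87 for H2-DMb1 and 0.85 for Ciita, 0.52 for H2-DMa and H2-DMb2, 0.36 for H2-Oa and 0.05 for H2-Ob. The 4 reference genes, which enter that mean themselves, were between 0.98 and 0.99. These values describe 6 libraries that share their scaling factors across genes, and only 3 libraries per group. The coefficient of variation of those 4 genes was 5.80% to 9.68% in non-radiated and 21.5% to 24.5% in radiated femur, and for H2-Ob it was 1.59% and 11.3%.

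The genes most like those 4 in log2 CPM over the 6 libraries were sought among 15570 other tested genes that averaged 1 CPM or more. The 8 with the highest Pearson correlation were Hfe, H2-K1, Sfxn3, Flcn, Ly6e, Il2rg, Tnfsf12Tnfsf13 and Mmrn2, from 0.993 down to 0.984, over libraries that share their scaling factors. Hfe encodes a class I-like regulator of iron uptake, H2-K1 a classical class I heavy chain and Il2rg the common gamma chain of cytokine receptors. None of the 8 was called by edgeR (adjusted p 0.0502 to 0.614), and their log2 fold changes ran from 0.08 to 0.44.

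**Figure D4:**
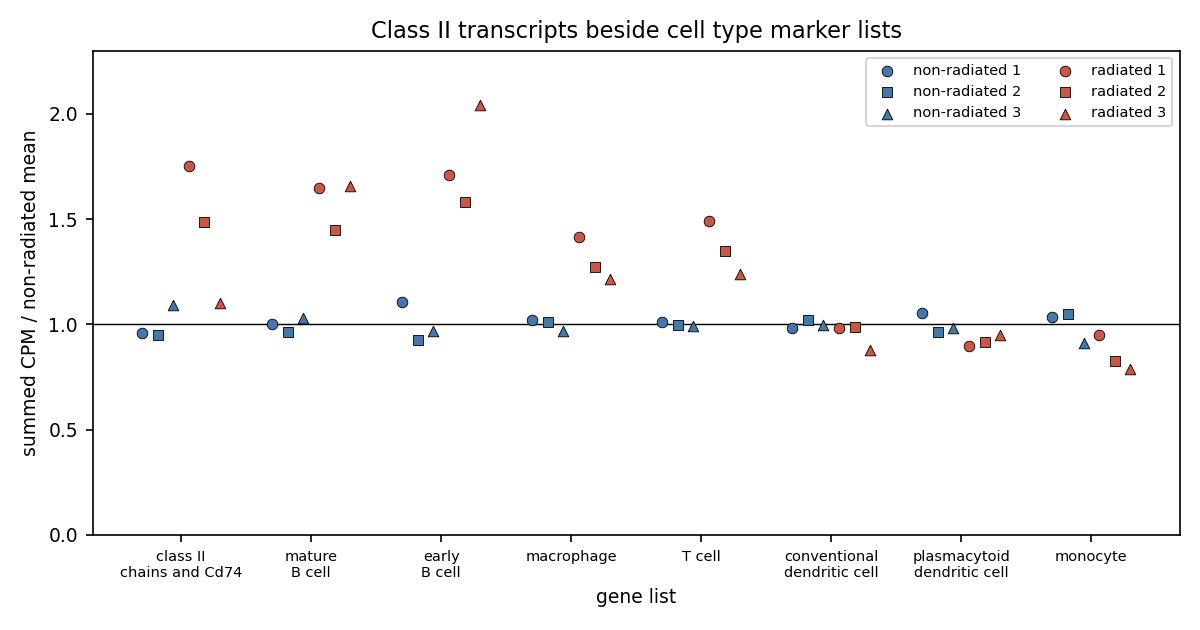
Summed CPM of the class II chains with Cd74 and of 7 cell type marker lists in each library, divided by the mean of the non-radiated libraries (vertical axis starting at 0), with symbols as replicates and colours as groups. In radiated library 3 the class II sum is 1.10 times the non-radiated mean, while the mature B cell sum is 1.66 times and the early B cell sum 2.04 times.

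Markers of B cells and macrophages, which are among the makers of class II named above, were also higher in radiated femur. Markers of T cells, which are not among those makers, were read beside them. The mature B cell list had 11 of 12 genes called higher and a median log2 fold change of 0.63, and the early B cell list 8 of 8 and 0.89. Cd79a, of the B cell receptor, rose by 0.76 on the log2 scale (adjusted p 0.000785 by edgeR). The mature B cell sum was 481 to 514 CPM in non-radiated and 723 to 827 CPM in radiated libraries. Of 11 macrophage markers 7 were called higher, with a list median of 0.43, and their sum was 927 to 976 CPM against 1161 to 1355 CPM. Among them C1qc, a complement subunit, rose by 0.62 (adjusted p 0.00556 by edgeR) and Siglec1, a sialic acid receptor, by 0.55 (0.00417). The T cell list had 1 of 7 genes called, Lck, and sums of 22.7 to 23.1 against 28.3 to 34.0 CPM. No marker of these 4 lists was at 0 in either group mean, and the lowest was the macrophage receptor Marco, at 0.554 and 0.819 CPM. The part of these cells in the class II result was not tested.

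Dendritic cell markers were called in both directions. In the conventional list 2 of 10 genes were called higher, Xcr1 and Ccr7, and 2 lower, Clec9a and Flt3, with a median log2 fold change of 0.11. Clec9a, a receptor for dead cells, fell by 0.97 on the log2 scale (adjusted p 0.000307 by edgeR) and Flt3, a cytokine receptor of dendritic cells and progenitors, fell by 0.65 (0.00200). Flt3 was not called under library totals alone (0.405), and Clec9a was called in 15 of 15 settings. Ccr7, a homing receptor, rose by 0.67 (0.0374). Xcr1, a chemokine receptor, had 5 to 33 counts per library and was called in 6 of 14 settings, but not with the replicate block (adjusted p 0.0501). Neither Xcr1 nor Ccr7 was called when library 1 or 2 of either group was dropped. Of 6 plasmacytoid markers Siglech and Ccr9 fell, by 0.87 and 0.91 (adjusted p 0.000477 and 0.00684 by edgeR). Both were called in 14 of 15 settings, but not under library totals alone. The other 4 were not called: Klk1 and Pacsin1 were negative, and Cox6a2 and Tcf4 were positive at 1.34 and 0.02 (adjusted p 0.296 and 0.880 by edgeR). Cox6a2 had 384 counts in radiated library 2 and 38 to 55 elsewhere. The conventional sums were 133 to 139 CPM in non-radiated and 119 to 134 CPM in radiated libraries, and overlapped.

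Set against each marker list, the summed counts of H2-Aa, H2-Ab1, H2-Eb1 and Cd74 overlapped between the groups for some lists and not for others. Per mature B cell count there were 1.14, 1.17 and 1.26 class II counts in the non-radiated libraries and 1.26, 1.22 and 0.792 in the radiated libraries, so radiated library 3 alone was below the non-radiated range. Per macrophage count there were 0.584, 0.583 and 0.701 in the non-radiated libraries and 0.768, 0.727 and 0.564 in the radiated libraries, and the groups overlapped. Per conventional dendritic cell count there were 4.27, 4.05 and 4.80 against 7.79, 6.59 and 5.48, with no overlap. The count of Cd74 per count of Ptprc, the pan-leukocyte gene CD45, was 0.431, 0.434 and 0.533 against 0.846, 0.756 and 0.565, again with no overlap. These ratios depend on which genes stand for a cell type.

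The other genes of the pathway were read from 5 further lists. Of 11 transcription factors tested, 1 was called, Irf4, a factor of B cells and dendritic cells, which rose by 0.78 on the log2 scale (SE 0.11, adjusted p 0.00318 by edgeR). None was called lower by edgeR, DESeq2 or limma-voom, or at an unadjusted p under 0.05. Rfx5, the RFX subunit, was at 27.2, 24.6 and 27.6 CPM in non-radiated and 31.3, 31.4 and 31.5 CPM in radiated libraries. The groups did not overlap, but its log2 fold change of 0.25 (adjusted p 0.0647 by edgeR) did not pass. The other RFX and NF-Y subunits and Creb1 had log2 fold changes of -0.07 to 0.10, none of them called.

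Of 9 genes that process antigen and the invariant chain 4 were called higher, Lgmn, Ctsd, Ctss and Ifi30. Lgmn was called in 13 of 15 settings and Ctsd and Ctss in 12, and under library totals alone 0 genes of this list were called higher. Lgmn, or legumain, rose by 0.38 (SE 0.07, adjusted p 0.0102 by edgeR) and Ctsd, cathepsin D, by 0.41 (SE 0.08, adjusted p 0.0134). Ctss, cathepsin S, which trims the invariant chain, was at 146, 162 and 142 CPM in non-radiated and 217, 200.3 and 177 CPM in radiated libraries, with a log2 fold change of 0.40 (SE 0.08, adjusted p 0.0176 by edgeR). Ifi30, the thiol reductase GILT, rose by 0.26 (adjusted p 0.0390), and its call held in 8 of 15 settings. Ctsl was negative at -0.29 (adjusted p 0.0776) and was called lower with the replicate block (adjusted p 0.0249), within a range of 0.0140 to 0.834 over all settings. March1, the ligase that removes class II from the surface, had a log2 fold change of 0.03 (adjusted p 0.884).

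Of 10 genes for costimulation and T cell contact 1 was called, Cd40, which rose by 0.56 (SE 0.13, adjusted p 0.0297 by edgeR). Cd40 was called in 10 of 15 settings, but not under library totals alone. The costimulatory ligands Cd80 and Cd86 had log2 fold changes of 0.15 (adjusted p 0.530) and 0.38 (0.0755), and Cd86 passed with the replicate block (0.0384). Of 13 class I presentation genes 1 was called, Nlrc5, the class I counterpart of Ciita, which rose by 0.35 (SE 0.06, adjusted p 0.00527 by edgeR). Nlrc5 was called in 14 of 15 settings, but not under library totals alone. H2-K1, H2-D1 and B2m, the class I molecule itself, were at 0.25, 0.11 and 0.03, not called. The class I list had a median of 0.10, against 0.50 for the class II members. The difference between the lists was not tested.

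Interferon-gamma is a known inducer of Ciita. Of 15 genes tested in that list, 5 were called higher and 1 lower. Cxcl9, a chemokine induced by interferon-gamma, rose by 1.55 (SE 0.18, adjusted p 0.00113 by edgeR), from 3.21, 3.95 and 4.70 CPM to 13.6, 11.9 and 9.30 CPM, with radiated library 3 the lowest of its group. Cxcl10, Gbp2, Gbp4 and Ifngr2 were the other 4, at 1.45, 0.78, 0.39 and 0.22, and Jak2, a kinase of the receptor, fell by 0.33 (adjusted p 0.00456). With scaling by library totals alone Jak2 did not pass (0.793). Ifngr2, a receptor chain, was called in 4 of 15 settings and not with the replicate block (adjusted p 0.0682). The block called 5 genes of the list higher, among them Gbp3 (adjusted p 0.0475), and 2 lower. The second of these was Igtp, an interferon-induced GTPase, with a log2 fold change of -0.41 (SE 0.11), an adjusted p of 0.0514 without and 0.0113 with the block, and a call in 5 of 15 settings. Igtp was negative in all 15 settings. Ifng itself did not reach the filter: it had 5, 5 and 3 counts in the non-radiated and 13, 21 and 4 in the radiated libraries, which overlapped, and was not tested. Irf1, a factor that relays the signal to Ciita, had a log2 fold change of 0.17 (adjusted p 0.154), not called.

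Depth and library make-up bear on all of these values. Total counts were 34034251 to 48708383 per library, and the members held 17100 to 55785 of them. In non-radiated library 2 the row AY036118 took 32.9% of counts, against 0.321% to 5.61% elsewhere, and leaving that row out again gave 4 called members. Skeletal muscle markers summed to 719, 2364 and 188 CPM in radiated libraries 1, 2 and 3 and to 160 to 328 CPM in the non-radiated libraries. The sums of H2-Aa, H2-Ab1, H2-Eb1 and Cd74 in radiated libraries 1, 2 and 3 were 1.75, 1.49 and 1.10 times the non-radiated mean. The part of muscle in the class II result was not tested. Of 6 adipocyte markers 6 were called higher, with sums of 24.1 to 27.1 CPM in non-radiated and 93.0 to 143 CPM in radiated libraries. Of 7 neutrophil markers 1 was called lower, Retnlg, and all 7 were lower without overlap, with sums of 13549 to 17543 against 10864 to 12715 CPM. Over all tested genes 25.9% did not overlap, counted in either direction. The part of adipocytes and neutrophils in the class II result was not tested. Osteoblast markers were present in every library, at summed levels of 3338 to 4220 CPM in radiated and 4467 to 6779 CPM in non-radiated libraries. Of 6 osteoblast markers 5 were negative and 1 was called lower, Col1a1 (log2 fold change -0.61, adjusted p 0.0470 by edgeR). Of 5 monocyte markers 1 was called lower, F13a1 (-0.32, adjusted p 0.0405), and of 6 endothelial markers 1, Tek (-0.60, adjusted p 0.00325). Col1a1 and F13a1 were called in 9 of 15 settings and Tek in 14. The part of these cell types in the class II result was not tested.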

How the data were processed

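The kit was TruSeq Stranded mRNA, per the labels' protocols. The submitters' processing notes name STAR 2.5.2b, Subread featureCounts and build mm10. The annotation, filters and use of strand are not given in the sources used here. The deposited table holds raw counts and RPKM per gene, per the file headers. RPKM was not used, since the library total behind it is not stated. Coordinates are printed as the deposited table gives them.

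The test was that of edgeR 4.0.16 (R 4.3.3) on the deposited counts: filterByExpr (minimum count 10, minimum total 15), TMM scaling, glmQLFit and glmQLFTest with the group as the only term, and Benjamini-Hochberg adjustment over 18757 genes at 0.05. Each SE was obtained as the log2 fold change over the root of the F statistic. The 14 alternatives were DESeq2 size factors, library totals alone, no filter, a mean of at least 1 CPM, DESeq2 1.42.0's Wald test, limma-voom (limma 3.58.1), the replicate number as a block, AY036118 left out, and each of 6 libraries left out. Log2 CPM used a prior count of 1. The fit was tested on simulated data. Transcripts were compared with BLAST 2.17.0.

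Groups came from the labels, with 3 libraries each, and nothing says which femurs came from 1 mouse. P-values set the group difference against the spread between these libraries. Libraries of a group differed by more than sampling noise (chi-square per degree of freedom 16.6 to 580). The values of 580 and 492 were those of pairs with non-radiated library 2, and the other pairs had 16.6 to 121. The row AY036118, which took 32.9% of counts in that library, was not left out here. Deviations from group means correlated across genes at 0.16, 0.26 and 0.18 for equal numbers and at -0.16 to -0.01 for unequal ones. For this reason the replicate number was used as a block in an alternative fit. The main fit, from which the calls are given unless stated, has the group as its only term and leaves any such pairing out.

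The members, 17 further gene lists, alternatives and naming rule were chosen with earlier results of these data known. All members, the called genes of each list (up to 6 by p), list-defining genes, up to 4 markers a list and the 8 most alike genes were to be named. Other genes named here, among them Dexi, Mir5107, Igtp, Gbp3, BC051537, Ptprc, H2-Eb2 and H2-Ea-ps, were chosen after their values were seen. Of 163 list entries all were found, 2 of them by gene ID (Fcmr and Adgre1).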

Additional observations from a re-analysis of the deposited data

How the results depend on the processing

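All 10 members kept a positive log2 fold change in the main fit and in the 14 alternatives, and none was called lower in any. The number called higher was 4 in the main fit, 4 with DESeq2 size factors and without AY036118, 3 with limma-voom and with genes averaging 1 CPM or more, 5 with DESeq2's Wald test and 6 under library totals alone. It was 7 with no filter on low counts. Of all genes tested, the share called in either direction was 7.8% in the main fit and without AY036118. This share was 7.87% with DESeq2 size factors, 7.29% with limma-voom and 8.91% with genes averaging 1 CPM or more. By DESeq2's Wald test it was 9.71%, under library totals alone 5.33% and with no filter 7.2%. With one library left out the number of called members ranged from 1 to 6: dropping radiated library 3 gave 6, radiated library 2 gave 2, non-radiated library 3 gave 3, and each of the other 3 libraries gave 1. The count over the whole table, 1463, ranged from 764 to 1376 in those fits (3.99% to 7.25% of genes tested), each on fewer samples. The replicate block gave 5 called members and 1670 called genes (8.9% of genes tested), and besides H2-Aa it changed no member's call. H2-Ob was called in 15 of 15 settings, Ciita in 12, H2-DMb2 in 9, H2-Eb1 in 7, H2-Aa in 5, H2-Ab1 in 4 and Cd74 in 3, and H2-DMa, H2-DMb1 and H2-Oa in 0. Library totals alone shifted the median over all genes from 0.00 to 0.19 (log2) and that of the members from 0.50 to 0.69. The cause of these differences between settings was not tested. Precision is limited by 3 libraries per group and, for H2-Oa, the lowest member, by 111 to 309 counts per library.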

Other observations

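Other rows of the class II region were also read. Between H2-Oa and H2-Eb1 (chromosome 17, 34092340 to 34316199) the table holds 18 rows, 8 of them members. Of the other 10 rows 6 were tested, Brd2, Psmb9, Tap1, Psmb8, Tap2 and Gm20506, and their log2 fold changes ran from 0.03 to 0.56 around a median of 0.12. None was called by edgeR, and 2 had an unadjusted p under 0.05. Tap1, a subunit of the class I peptide transporter, was nearest, at 0.24 (adjusted p 0.0638 by edgeR).

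H2-Eb2, a further beta chain gene beside H2-Eb1, was counted 113, 64 and 201 times in the non-radiated and 183, 224 and 193 times in the radiated libraries, with a log2 fold change of 0.35 (SE 0.21, adjusted p 0.403 by edgeR). Its longest transcript was 77.9% identical to that of H2-Eb1 over 779 aligned bases. The row H2-Ea-ps, the I-E alpha chain gene that is not functional in C57BL/6 mice, had 3 and 2 counts in radiated libraries 2 and 3 and 0 in the other 4 libraries.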
